A study of Mus musculus with 6 samples.

Results

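The collagen genes, which encode the chains of the main structural proteins of the extracellular matrix, were followed in mouse dermal fibroblasts treated with interleukin-1 (IL-1). A gene was a member if its name in the array files was Col, digits, a, digits, as in Col3a1. The array carried 38 such genes on 75 of its 41174 probes. Of these, 37 genes had at least 1 probe well above its background in Cy3 or Cy5 on each of the 6 arrays, and Col10a1 did not. These 37 genes were part of the 22213 genes measured in all. The rule looked at signal and not at the response to IL-1.

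The treated cells were C57BL/6 dermal fibroblasts, grown as a culture in DMEM with serum and antibiotics, that received IL-1 at 20 ng/ml for 1, 2 or 4 h. The control was RNA of untreated dermal fibroblasts of the same strain (0 h). On each of the 6 Agilent 2-colour arrays treated RNA competed with untreated RNA of the other dye, and the 2 arrays of a time point had the dyes exchanged. Both arrays of a time point held the same RNAs and counted as 1 sample, so n = 3 samples. Passage number, age of the animals and the form of IL-1 were not given in the sources used here, and neither was whether the time points came from separate cultures.

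A collagen molecule is a triple helix of 3 chains, which may come from 1 gene or from several. Fibril-forming collagens (types I, II, III, V, XI, XXIV and XXVII) build the banded fibers of skin, cartilage and bone, and in dermis types I and III predominate while type V sets fibril diameter. Network and filament collagens (types IV, VI, VII, VIII) form basement membranes, the beaded filaments around cells and the anchoring fibrils below the epidermis. Fibril-associated collagens decorate the fibrils, transmembrane collagens span the cell membrane, and multiplexins (types XV and XVIII) carry heparan or chondroitin sulfate chains in basement membrane zones. Dermal fibroblasts are the main collagen producers of skin, and IL-1 is an inflammatory cytokine that acts on them through NF-kB and AP-1.

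Each value is a treated over untreated ratio on the log2 scale, averaged over both dye orientations. The distance of either array from that average had a median of 0.0622 over all genes and 0.0784 over the collagen genes, which is a technical error only. A mean response (average of the 3 times) and a slope per doubling of time were tested with limma over all 22213 genes, with a Benjamini-Hochberg adjusted p under 0.05 as the threshold. The ± after a mean response or slope is limma's moderated standard error for n = 3 samples. It draws each gene's own variance toward a variance common to all genes. A ratio against 0 leaves out the spread of the untreated RNA, and a deviation of that RNA cannot be told apart from a response alike at all 3 times. A single time, with its 1 sample, could not be tested.

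The direction of all ratios rests on the dyes in the labels. In that direction the chemokine Cxcl1 stood at 6.21, 5.49 and 4.84 at 1, 2 and 4 h and Nfkbia, the gene of the NF-kB inhibitor IkB-alpha, at 3.02, 2.65 and 1.87. In the authors' deposited value table the 2 columns of each time point are exchanged relative to the scanner files, which leaves their mean unaffected. If the scanner files were the exchanged source, all signs would turn, and IL-1 would then have lowered Cxcl1 and Nfkbia. All 9 fibroblast markers looked up (among them Thy1, Vim and Dcn) were above the 95th percentile of the 314 negative control spots in the untreated channel, 5 of them more than 10 times. Of the other cell types' lists, 4 of 8 keratinocyte, 3 of 6 endothelial, 5 of 7 leukocyte, 1 of 5 melanocyte, 4 of 6 muscle or pericyte, 1 of 4 adipocyte, 3 of 4 Schwann cell and 2 of 5 chondrocyte markers were above that percentile. Only the muscle or pericyte list had markers more than 10 times above it, Acta2 and Cspg4, which cultured fibroblasts can also express. The part of other cell types in the results was not tested, and in bulk RNA fewer cells of a type and less RNA per cell cannot be told apart.

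The measured ratios of the collagen genes were small within 4 h of IL-1. The brightest probes of Col1a1 and Col1a2 were saturated in Cy5 on all 6 arrays, and 8 of 37 members were not above the negative controls. For these genes a small ratio does not show that there was no response. No member was at least 2-fold higher or lower in both orientations at any time, and the largest size at any time was 0.80 on the log2 scale, for Col5a3 at 4 h. Among all genes, 0.212%, 0.18% and 0.135% passed that size rule upward at 1, 2 and 4 h, and 0.009%, 0% and 0% downward. In the mean response 10 of 37 collagen genes (27.0%) were higher, against 10.5% of all genes, and 4 of 37 (10.8%) were lower, against 10.8% of all genes. The share of lower genes was thus that of the whole array. The higher genes were Col5a3, Col18a1, Col6a1, Col4a2, Col4a1, Col6a2, Col7a1, Col6a3, Col16a1 and Col4a4, and the lower genes were Col4a5, Col3a1, Col12a1 and Col2a1. Of these 14 genes, 10 had the sign of their mean on all 6 arrays.

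The counts of higher and lower genes, for collagen genes and for the whole array, depended on how dye bias was removed. When arrays were only centred on their medians, without an intensity-dependent correction, 4 were higher (10.8%) and 8 lower (21.6%). The whole array moved too, with 5.07% of all genes higher and 25.9% lower in that setting, so the share of lower collagen genes was below that of all genes. With the scanner's own processed signals, 4 were higher and 4 lower (10.8% each), against 3.37% and 2.63% of all genes. Col3a1, Col4a5 and Col6a1 kept their calls in all 14 alternatives, and Col4a1, Col4a2 and Col12a1 in all but 1 of them. The authors' value table, counted among these, repeats the processed signals. Col4a5 and Col6a1 had 1 probe each, so the mean of a gene's probes could not change their values. Leaving out 2 h left 3 higher and 3 lower genes (8.11% each, against 2.13% and 1.54% of all genes) and ended the calls of Col5a3, Col18a1, Col16a1, Col2a1, Col4a4, Col6a2, Col6a3 and Col7a1 (adjusted p from 0.0535 to 0.197). Leaving out 1 h ended those of Col16a1, Col4a4 and Col7a1, and leaving out 4 h that of Col4a4. Without the arrays with treated RNA in Cy3, 8 genes were higher and 10 lower (21.6% and 27.0%, against 21.4% and 16% of all genes), with Col6a2 at 0.00044, Col6a3 at 0.016 and Col7a1 at 0.086 no longer past the threshold. Without those with treated RNA in Cy5, 15 were higher and 4 lower (40.5% and 10.8%, against 14.8% and 19.3% of all genes), with Col2a1 at -0.12 (adjusted p = 0.0798).

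**Figure D1:**
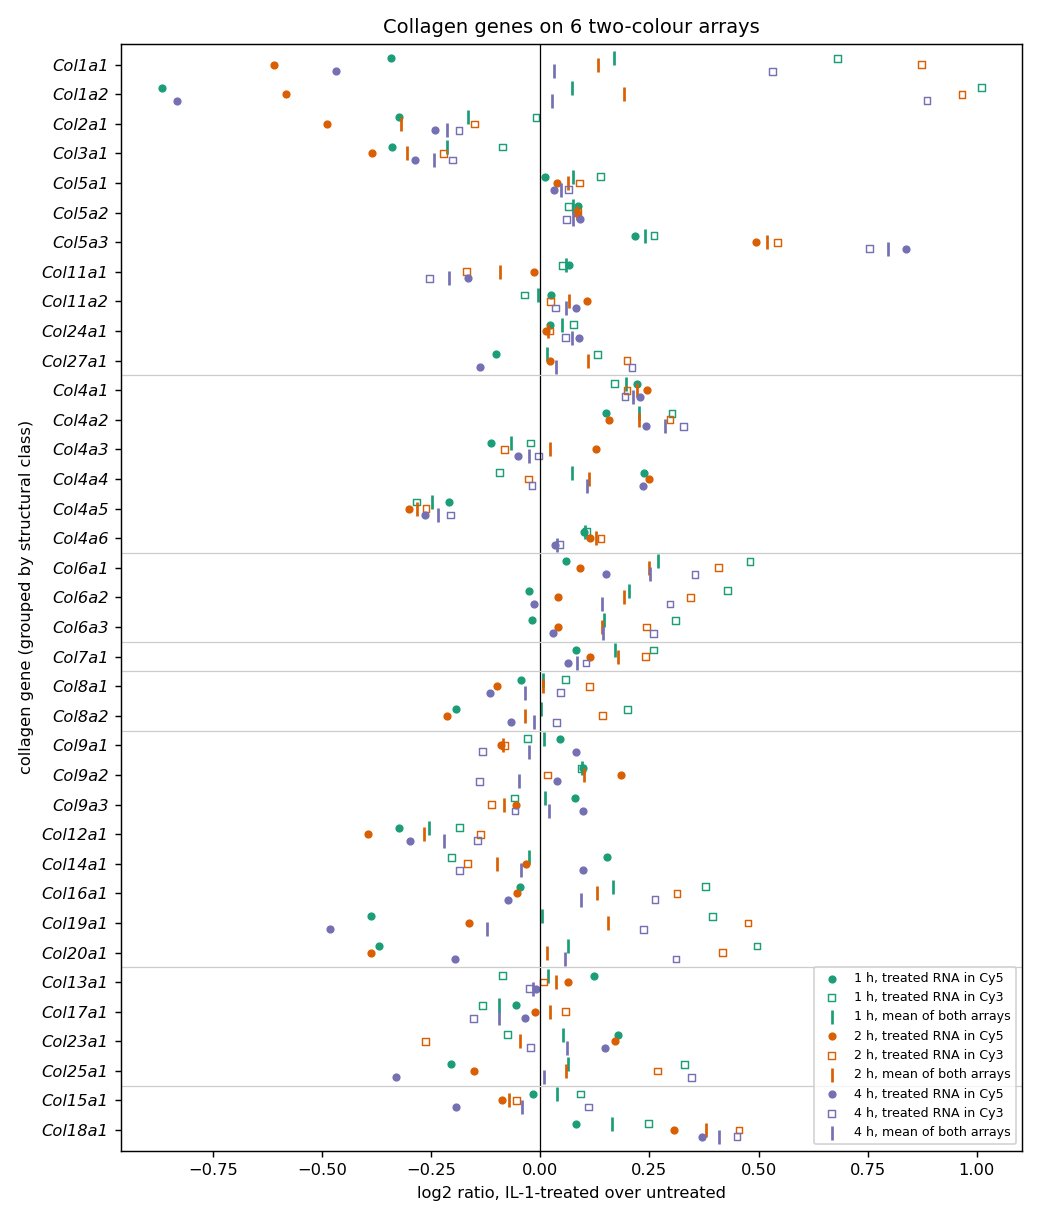
Log2 ratio of IL-1-treated over untreated RNA (x axis) for the 37 collagen genes (y axis, grouped by structural class with grey lines between classes), with filled circles for arrays with treated RNA in Cy5, open squares for arrays with it in Cy3, vertical bars for the mean of both, and colours for 1, 2 and 4 h. Most means lie near 0, Col5a3 reaches 0.80 at 4 h, and the orientations of Col1a1 and Col1a2 lie far apart, from -0.87 to 1.01 for Col1a2 at 1 h.

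The fibril-forming class held the largest mean response of the family. Of its 11 members 1 was higher (Col5a3), 2 were lower (Col3a1 and Col2a1) and 8 did not pass the test, 4 of these at an unadjusted p under 0.05. Type V collagen is a minor component that nucleates and limits the growth of type I fibrils, and its chains come from 3 genes. Col5a3 encodes the least widely expressed chain, alpha-3(V).

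The 1 h arrays gave Col5a3 values of 0.22 and 0.26, the 2 h arrays 0.50 and 0.54, and the 4 h arrays 0.84 and 0.75. Each later time lay above the earlier one in both orientations, with no overlap between times. At 4 h this is 1.74-fold. The mean response was 0.52 ± 0.097 (limma, adjusted p = 0.0172) and the slope 0.28 ± 0.027 per doubling of time (limma, adjusted p = 0.0252). It was the only collagen gene with a slope past the threshold, where 0.162% of all genes rose and 0.212% fell. An unadjusted p under 0.05 was reached by 2 rising and 2 falling slopes among the collagen genes.

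The slope of Col5a3 was 0.25 to 0.31 in either orientation alone, but did not pass the test there (adjusted p = 0.123 and 0.0557), nor with the processed signals (adjusted p = 0.514), offset 16 (0.401) or a trended variance (0.218). The second Col5a3 probe was not brighter than the 95th percentile of the negative controls and had a mean of 0.06. It did not rise with time, at 0.107, 0.045 and 0.021 after 1, 2 and 4 h. With the mean of both probes the slope was 0.12 (adjusted p = 0.180) and the value at 4 h 0.41. The call of the mean response was lost with the processed signals (0.55, adjusted p = 0.0791) and without 2 h (adjusted p = 0.0963).

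The 250 bases before the start of Col5a3 are shown because no other collagen gene had a slope past the threshold. The window is chr9:20815068-20815317 on the minus strand (GRCm38.p6, sequence from RefSeq's annotation). Capitals mark the CCAAT box, 122 bases before the start, and both GC boxes (GGGCGG on the other strand), 63 and 41 bases before it.
Col5a3: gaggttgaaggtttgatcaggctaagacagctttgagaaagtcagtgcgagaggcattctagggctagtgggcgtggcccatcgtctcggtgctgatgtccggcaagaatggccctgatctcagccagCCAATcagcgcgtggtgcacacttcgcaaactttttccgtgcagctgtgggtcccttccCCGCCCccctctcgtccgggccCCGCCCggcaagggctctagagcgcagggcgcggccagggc

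The partner chains of Col5a3 in type V collagen stood near 0. Col5a1 ran from 0.01 to 0.14 over the 6 arrays, with a mean of 0.06 ± 0.022 (adjusted p = 0.102). Col5a2 ran from 0.06 to 0.09, with a mean of 0.08 ± 0.021 (adjusted p = 0.0504). Both had adjusted p-values under the threshold when the 6 arrays were fitted with the replicate block (0.0420 and 0.0108). Both turned negative with median centring, at -0.12 and -0.09, so they have no settled direction. The difference between Col5a3 and its partner chains was not tested.

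**Figure D2:**
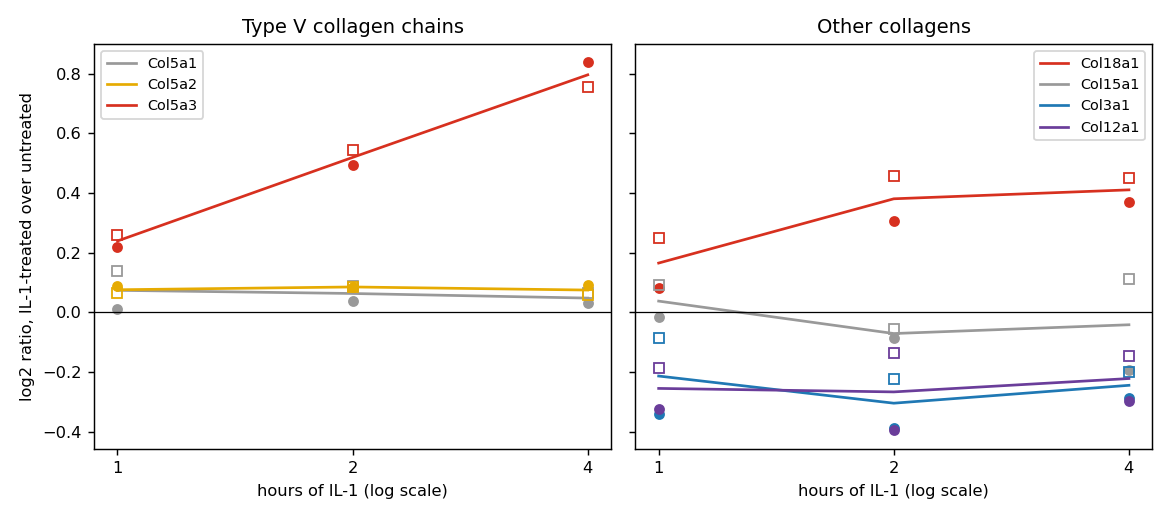
Log2 ratio of IL-1-treated over untreated RNA (y axis) against hours of IL-1 (x axis, log scale) for the 3 type V chains (left) and for Col18a1, Col15a1, Col3a1 and Col12a1 (right), with filled circles for treated RNA in Cy5, open squares for treated RNA in Cy3 and lines through their means. Col5a3 climbs from 0.24 to 0.80 while Col5a1 and Col5a2 stay between 0.05 and 0.08, and Col3a1 and Col12a1 stay below 0 at every time.

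Col3a1, the chain of the pliable reticular fibers of young and healing dermis, was lower. Its arrays read -0.34 and -0.09 (1 h), -0.39 and -0.22 (2 h), and -0.29 and -0.20 (4 h). All 6 values were below 0, and those with treated RNA in Cy5 were the lower ones at each time. The mean response was -0.25 ± 0.026 (limma, adjusted p = 0.0038), and over the 14 alternatives it ranged from -0.43 to -0.15 with the call kept. A second, dim Col3a1 probe stood at -0.05.

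The window before the Col3a1 start is shown beside that of Col5a3 since it has neither a GC box nor a CCAAT box. It shares this lack with other windows, among them those of the higher genes Col6a1 and Col4a4. It is chr1:45311288-45311537 on the plus strand (GRCm38.p6), and capitals mark a TATAAA 117 bases before the start.
Col3a1: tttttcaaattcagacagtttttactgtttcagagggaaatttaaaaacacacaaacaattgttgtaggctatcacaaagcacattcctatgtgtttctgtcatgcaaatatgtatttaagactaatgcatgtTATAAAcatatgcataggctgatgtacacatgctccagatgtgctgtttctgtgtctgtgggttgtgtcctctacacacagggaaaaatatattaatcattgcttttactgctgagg

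Col2a1, the chain of cartilage collagen, read -0.32 and -0.01 (1 h), -0.49 and -0.15 (2 h), and -0.24 and -0.19 (4 h). All arrays were below 0, with a mean of -0.23 ± 0.034 (limma, adjusted p = 0.0087). Another probe of the gene that was also above the negative controls went the other way, from 0.10 to 0.27 over the arrays with a mean of 0.17, and with the mean of its probes Col2a1 was at -0.02 (adjusted p = 0.541). The gene thus has no settled direction. Chondrocyte markers, 2 of 5 above the negative controls, were all under 10 times that level.

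Type I collagen, the bulk of dermal fibers, was at the limit of the scanner. The brightest probes of Col1a1 and Col1a2 were saturated in Cy5 on all 6 arrays and on none in Cy3, so each condition had 1 of its 2 arrays at the ceiling. Col1a1 read -0.34, -0.61 and -0.47 with treated RNA in the saturated Cy5 and 0.68, 0.87 and 0.53 with it in Cy3. Col1a2 read -0.87, -0.58 and -0.83 against 1.01, 0.97 and 0.89. The sign on each array thus followed which RNA was in the saturated channel. Averaged, Col1a1 was at 0.17, 0.13 and 0.03 (mean 0.11 ± 0.032, adjusted p = 0.0603) and Col1a2 at 0.07, 0.19 and 0.03 (mean 0.10 ± 0.036, adjusted p = 0.116).

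Cy3 was not saturated, but its values were normalized jointly with Cy5, so they are not free of the Cy5 ceiling. In these normalized Cy3 values treated minus untreated was 0.30, 0.06 and 0.02 for Col1a1 and 0.06, 0.18 and -0.01 for Col1a2. Such differences between single channels of different arrays had a standard deviation over all genes of 0.210, 0.203 and 0.237. The type I values were therefore not large against the spread of this measure, apart from Col1a1 at 1 h, which lay past 1 standard deviation. Raw Cy3 signals, not scaled between arrays, were lower with treated RNA at each time. For Col1a1 they were 31721 against 34628, 39180 against 45357 and 32337 against 42822 with untreated RNA at 1, 2 and 4 h. For Col1a2 they were 39661 against 49520, 41724 against 44485 and 41095 against 55001. Both other Col1a1 probes, not saturated, stood at 0.05. The brighter of them also split by dye, at -0.14, -0.12 and -0.09 with treated RNA in Cy5. With it in Cy3 that probe read 0.27, 0.21 and 0.20, and its mean was -0.11 with median centring. The other Col1a2 probe, which was not above the negative controls and whose accession is a full-length cDNA clone, stood at -0.41 (range -0.55 to -0.25), and the mean of the gene's probes was -0.16 (adjusted p = 0.0089). Neither type I chain has a settled response here.

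The remaining fibril-forming genes did not pass the test. Col11a1, a cartilage fibril chain also made by fibroblasts, stood at 0.06, -0.09 and -0.21 after 1, 2 and 4 h, with a slope of -0.13 ± 0.027 (adjusted p = 0.154) and a mean of -0.08 (adjusted p = 0.317). A second Col11a1 probe, dimmer but also above the negative controls, stood at -0.0016, 0.0033 and -0.036 at these times. Col11a2 had a mean response of 0.04, Col24a1 of 0.05 and Col27a1 of 0.05. Col24a1 was not above the negative controls.

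Basement membrane collagen, type IV, forms sheet-like networks below epithelia and around vessels. Of its 6 genes 3 were higher (Col4a1, Col4a2 and Col4a4), 1 was lower (Col4a5) and 2 did not pass. Col4a1 and Col4a2 encode the chains found in nearly all basement membranes, and the genes lie head to head with a shared promoter region.

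Col4a1 read 0.22 and 0.17 (1 h), 0.24 and 0.20 (2 h), and 0.23 and 0.19 (4 h), with a mean of 0.21 ± 0.022 (limma, adjusted p = 0.0038). Col4a2 read 0.15 and 0.30 (1 h), 0.16 and 0.30 (2 h), and 0.24 and 0.33 (4 h), with a mean of 0.25 ± 0.024 (limma, adjusted p = 0.0033). No array of either gene fell below 0.15, and the times overlapped. Their second probes, also above the negative controls, ran from 0.23 to 0.32 and from 0.23 to 0.45. With median centring the pair stood at 0.05 and 0.10 and did not pass (adjusted p = 0.234 and 0.0674).

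Col4a5 and Col4a6, X-linked neighbours that are also head to head, had different calls. Col4a5, whose loss causes Alport syndrome, read -0.21 and -0.28 (1 h), -0.30 and -0.26 (2 h), and -0.27 and -0.21 (4 h). The highest array was at -0.21, with a mean of -0.26 ± 0.023 (limma, adjusted p = 0.0027), and the range over the 14 alternatives was -0.36 to -0.21. Col4a6 ran from 0.03 to 0.14, with a mean of 0.09 ± 0.026 (adjusted p = 0.0620, and 0.0148 with the replicate block), but was at -0.02 with median centring.

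Col4a3 and Col4a4 are partners of Col4a5 in the network of the kidney and lung. Col4a4 was called higher at 0.10 ± 0.022 (limma, adjusted p = 0.0315), but the 3 arrays with treated RNA in Cy5 read 0.24, 0.25 and 0.23 and those with it in Cy3 -0.09, -0.03 and -0.02. Its sign turned with median centring (-0.0081) and without the Cy5-treated arrays (-0.047). Col4a3 had a mean of -0.02 and was not above the negative controls.

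Type VI collagen forms beaded filaments that link cells to the surrounding fibers, and all 3 of its measured genes were higher. Col6a1 read 0.06 and 0.48 (1 h), 0.09 and 0.41 (2 h), and 0.15 and 0.35 (4 h). All values were above 0, and the arrays with treated RNA in Cy3 were higher at each time. The mean was 0.26 ± 0.021 (limma, adjusted p = 0.0023), and it kept its call in all alternatives, at 0.10 with median centring. With 1 probe for Col6a1, the mean of probes could not change that value. Col6a2, its neighbour on chromosome 10, had a mean of 0.18 ± 0.024 (limma, adjusted p = 0.0068), with arrays from -0.03 to 0.43, but its second probe averaged -0.01. Col6a3, the large chain, had a mean of 0.14 ± 0.021 (limma, adjusted p = 0.0090), with arrays from -0.02 to 0.31, and turned to -0.03 with median centring. With the mean of a gene's probes, neither Col6a2 (0.084, limma, adjusted p = 0.0844) nor Col6a3 (0.073, limma, adjusted p = 0.0599) passed.

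Among the promoter windows of the collagen genes, that of Col6a1 was the only one with an AP-1 element (TGANTCA), and it is shown for that reason. The window is chr10:76726045-76726294 on the minus strand (GRCm38.p6), and capitals mark the element, 90 bases before the start.
Col6a1: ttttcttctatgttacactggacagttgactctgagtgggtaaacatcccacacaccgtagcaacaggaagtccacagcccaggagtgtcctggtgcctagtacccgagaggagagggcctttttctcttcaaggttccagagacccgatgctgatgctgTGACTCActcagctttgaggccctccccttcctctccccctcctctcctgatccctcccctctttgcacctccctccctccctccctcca

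The anchoring fibril and short-chain collagens had small values. Col7a1, the anchoring fibril chain that is mutated in dystrophic epidermolysis bullosa, read from 0.06 to 0.26 over the 6 arrays, with a mean of 0.14 ± 0.028 (limma, adjusted p = 0.0185), and stood at -0.01 with median centring. The short-chain network genes Col8a1, found around vessels and in Descemet's membrane, and Col8a2 had means of -0.01 and -0.02, and neither reached an unadjusted p under 0.05. Col8a1 was among the brightest probes of the family but was called lower with median centring, at -0.19 (adjusted p = 0.0024).

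Fibril-associated collagens bind the surface of fibrils. Of their 8 genes 1 was lower (Col12a1), 1 was higher (Col16a1) and 6 did not pass. Col12a1, which decorates type I fibrils in tendon, fascia and dermis, read -0.33 and -0.19 (1 h), -0.40 and -0.14 (2 h), and -0.30 and -0.15 (4 h). All arrays were below 0, with a mean of -0.25 ± 0.023 (limma, adjusted p = 0.0029). That probe is named by an expressed sequence tag. The probe for the RefSeq transcript of Col12a1, also above the negative controls, ran from -0.03 to 0.26 with a mean of 0.12, and the mean of both was -0.065 (adjusted p = 0.0753), so the gene's direction depends on the probe.

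Col16a1 was called higher at 0.13 ± 0.024 (limma, adjusted p = 0.0176), but only the arrays with treated RNA in Cy3 were above 0. They read 0.38, 0.31 and 0.26, against -0.05, -0.05 and -0.07 in Cy5. Its value was -0.029 with median centring and -0.059 without the Cy3-treated arrays. A second Col16a1 probe, not above the negative controls, stood at 0.00093. With the mean of both probes Col16a1 did not pass (0.065, limma, adjusted p = 0.0943). The other fibril-associated genes had means of -0.03 (Col9a1), 0.05 (Col9a2), -0.02 (Col9a3), -0.06 (Col14a1), 0.01 (Col19a1) and 0.04 (Col20a1). Col19a1 and Col20a1 had opposite signs in the 2 orientations at every time, while Col9a1, Col9a3 and Col14a1 were not above the negative controls.

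The 4 transmembrane collagens did not pass the test, and none reached an unadjusted p under 0.05. Col13a1 had a mean of 0.01, Col17a1, a hemidesmosome protein of keratinocytes, of -0.06, Col23a1 of 0.02 and Col25a1 of 0.04. Only Col25a1 was above the negative controls, so the other values do not show that these genes did not respond. Nor does the mean of Col25a1, whose orientations had opposite signs at every time. It read -0.20, -0.15 and -0.33 with treated RNA in Cy5 and 0.33, 0.27 and 0.35 with it in Cy3.

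Of the multiplexins, Col18a1, whose C-terminal fragment is the angiogenesis inhibitor endostatin, was higher and Col15a1 did not pass. Col18a1 read 0.08 and 0.25 (1 h), 0.31 and 0.46 (2 h), and 0.37 and 0.45 (4 h). Both arrays of 2 h and of 4 h lay above both of 1 h, while 2 h and 4 h overlapped. The mean was 0.32 ± 0.050 (limma, adjusted p = 0.0106), and the slope of 0.12 ± 0.035 did not pass (adjusted p = 0.284). A second probe above the negative controls gave 0.15, 0.29 and 0.37 at the 3 times. The lowest value over the 14 alternatives was 0.19, but the gene did not pass in 3 of them, among them the processed signals (0.35, adjusted p = 0.0637) and the fit without 2 h (0.29, adjusted p = 0.0782). Col15a1 had a mean of -0.03.

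Col18a1 has 2 annotated starts in the promoter table, and the outer window is shown as that of the second most responsive member. It is chr10:77166531-77166780 on the minus strand (GRCm38.p6). Capitals mark a CCAAT box on the other strand, 210 bases before the start, and 3 GC boxes on the other strand, 61, 43 and 33 bases before it. The inner Col18a1 window had no match to any motif searched. Which start these cells use was not tested.
Col18a1: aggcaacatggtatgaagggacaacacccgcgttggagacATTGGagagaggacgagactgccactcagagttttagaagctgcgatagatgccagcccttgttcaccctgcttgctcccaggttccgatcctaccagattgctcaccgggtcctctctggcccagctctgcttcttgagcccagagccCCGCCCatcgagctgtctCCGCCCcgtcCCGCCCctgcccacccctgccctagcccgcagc

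**Figure D3:**
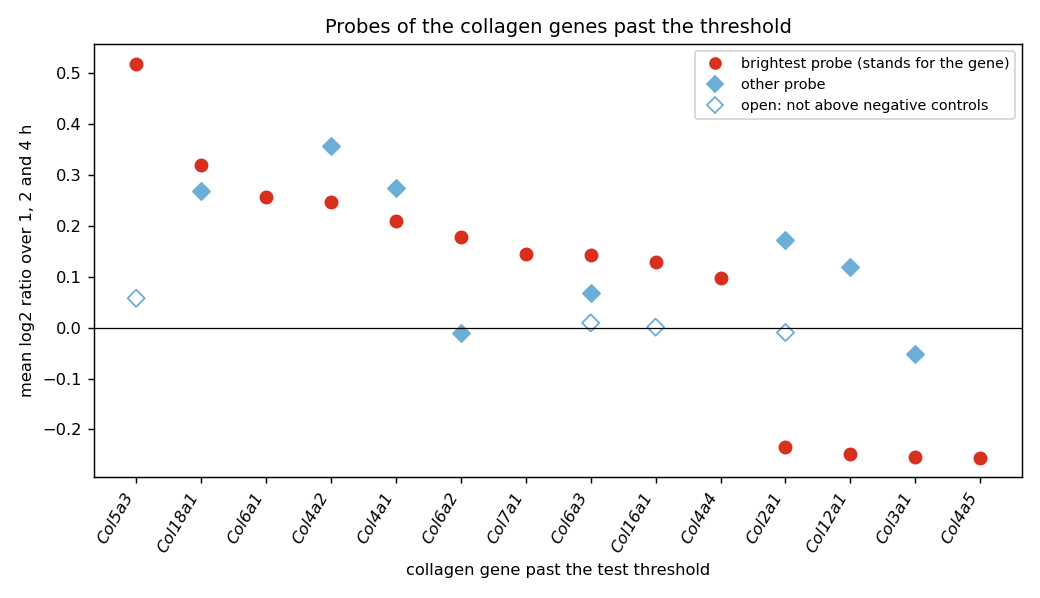
Mean log2 ratio over 1, 2 and 4 h (y axis) of each kept probe of the 14 collagen genes past the test threshold (x axis), with red circles for the brightest probe, which stands for the gene, blue diamonds for other probes and open diamonds for other probes not above the negative controls. The other probes of Col18a1, Col4a1 and Col4a2 lie beside the brightest one, while those of Col2a1 (0.17) and Col12a1 (0.12) lie on the other side of 0.

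How far the probes of a gene agree differed between members. Of the 14 genes past the threshold, 10 had more than 1 kept probe, and in 7 of these all kept probes had the same sign. The others were Col2a1, Col6a2 and Col12a1. The count of shared signs includes dim probes near 0, such as 1 of Col16a1 at 0.00093 and 1 of Col6a3 at 0.0092. The 23 members that did not pass had mean responses from -0.08 to 0.11, with 95% confidence bounds between -0.21 and 0.19. Of the 37 members, 29 were above the 95th percentile of the negative controls in both channels on all arrays and included all 14 that passed. The other 8 ran from -0.06 to 0.05.

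Over the family, log2 ratios had medians of 0.058, 0.063 and 0.032 after 1, 2 and 4 h, beside about 0.0033, 0.0031 and 0.0027 over all genes. At these times 29, 26 and 22 of the 37 members were above 0, against 51.6%, 51.5% and 51.4% of all genes. With median centring the family medians were 0.013, -0.015 and -0.037, beside -0.033, -0.031 and -0.031 for all genes. The sign of the family's median at 2 and 4 h thus depended on the normalization.

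**Figure D4:**
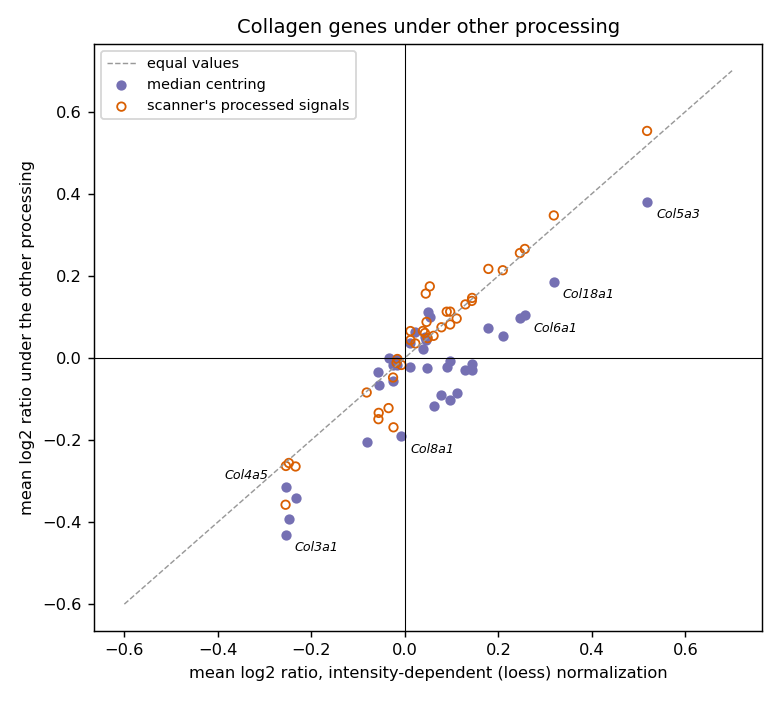
Mean log2 ratio of each collagen gene over 1, 2 and 4 h with intensity-dependent normalization (x axis) against the value with median centring (filled circles) or the scanner's processed signals (open circles) (y axis), with a dashed line where both are equal. The processed signals lie near the line, while median centring puts most members lower, such as Col5a3 at 0.38 in place of 0.52.

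In the RefSeq gene order 6 pairs of members are neighbours. Both genes were higher in the pairs Col4a1 and Col4a2, and Col6a1 and Col6a2. In Col3a1 and Col5a2, Col4a4 and Col4a3, and Col4a5 and Col4a6, 1 gene passed and the other did not, and in Col9a1 and Col19a1 neither did. Neighbouring collagen genes thus did not always share a call.

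The promoter table held 30 of the 37 members, with 33 windows of 250 bases. GC boxes (GGGCGG, either strand), which bind Sp1-family factors, were in 19 of the 33 windows (57.6%), against 32.7% of all windows of that length. CCAAT boxes (either strand), bound by NF-Y, were in 12 windows (36.4%, against 33.8%), and TATAAA (either strand) in 4 (12.1%, against 12.4%). The AP-1 element was in 1 window (3.03%, against 6.75%). The NF-kB consensus, the motif most tied to IL-1, was in 5 windows (15.2%, against 7.25%), those of Col27a1, Col4a2, Col6a2, Col9a1 and Col9a2. Of these genes Col4a2 and Col6a2 were higher and the rest did not pass. Col5a3 and Col18a1 had no match to it in these windows, and a match is a description of letters only.

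Genes that make, process and break down collagen were read in the same fit. Of 109 measured genes on 7 lists, 33 were higher (30.3%) and 22 lower (20.2%), beside 10.5% and 10.8% of all genes. With median centring 20 and 50 were (18.3% and 45.9%), beside 5.07% and 25.9% of all genes. With the processed signals 13 and 6 were (11.9% and 5.5%, beside 3.37% and 2.63%), and without 2 h 13 and 4 (11.9% and 3.67%, beside 2.13% and 1.54%). Of the list genes past the threshold that are named, Loxl1, Timp1 and Serpinh1 turned their sign in 1 of the 14 alternatives and the others in none. Of the higher and lower genes on the lists, Mmp13 and Omd were not above the 95th percentile of the negative controls.

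Of 24 chaperones and modifying enzymes, which fold and hydroxylate the chains in the endoplasmic reticulum, 8 were higher and 6 lower. The largest were P4hb (0.31), the beta subunit of prolyl 4-hydroxylase, its alpha subunit P4ha2 (0.28), the stress-responsive factor Creb3l1 (0.30) and the hydroxylysine galactosyltransferase Colgalt1 (0.28). The collagen chaperone Serpinh1 (Hsp47) was lower by a small amount, at -0.10 (limma, adjusted p = 0.0402), and P4ha1 was at 0.00076. Of 7 propeptide proteinases and enhancers 1 was higher, Bmp1 (0.29), the C-proteinase of fibrillar procollagens. Adamts2 (0.05), Pcolce (0.05) and Pcolce2 (-0.09) did not pass.

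Of 5 cross-linking enzymes 2 were higher, Loxl4 (0.11) and Loxl1 (0.11, but -0.05 with median centring), and 1 was lower, Loxl2 (-0.18). Lox itself was at 0.03 and did not pass. Of 20 fibril-associated matrix proteins 6 were higher and 5 lower. Decorin (Dcn), which coats type I fibrils, was at 0.14, 0.44 and 0.80 at 1, 2 and 4 h, with a slope of 0.33 per doubling (limma, adjusted p = 0.0152). Biglycan (Bgn) was at 0.37, and thrombospondin 1 (Thbs1) and osteoglycin (Ogn) were lower, at -0.40 and -0.37.

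Of 15 genes of collagen breakdown and uptake 5 were higher and 2 lower. The gelatinase Mmp9 was at 0.57, with a slope of 0.29 (limma, adjusted p = 0.0344), and with the processed signals at 1.10, where it did not pass (adjusted p = 0.0609). Stromelysin Mmp3 was at 0.52 and Mmp2 at 0.26. The collagenase Mmp13 was counted as higher at 0.30, from a probe not above the negative controls, and was at 0.76 with the processed signals (adjusted p = 0.0625), so its size is not settled. Timp1, an inhibitor of these enzymes, was at 0.20, with its probe saturated in Cy5 on all 6 arrays. Of 8 collagen receptors 2 were higher, the receptor kinase Ddr1 (0.44) and the integrin subunit Itgb1 (0.30), while Itga1 (-0.07, not above the negative controls) and Itga11 (0.06) did not pass.

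Of 30 transcriptional regulators of collagen genes 9 were higher and 8 lower. Cebpd (1.58) and Cebpb (1.18) had the largest mean responses of these lists. Smad3, which carries TGF-beta signals, was at 0.41 and Ets1 at 0.39. The ligand Tgfb3 was at -0.12, -0.36 and -0.65 at 1, 2 and 4 h, the only gene of the lists with a falling slope past the threshold (-0.27, limma, adjusted p = 0.0324). As for Col5a3, the slopes of Dcn, Mmp9 and Tgfb3 did not pass with the processed signals (adjusted p = 0.514 each), offset 16 (0.327, 0.327 and 0.401) or a trended variance (0.142, 0.235 and 0.128), where limma called 0 slopes over the whole array and 2023, 2081 and 2363 had an unadjusted p under 0.05. They also did not pass without replicate 2 (0.0747, 0.209 and 0.0952), nor, for Mmp9 and Tgfb3, without replicate 1 (0.0527 and 0.102). Subunits of NF-Y, the CCAAT-binding factor, went both ways, with Nfya at 0.17 and Nfyb at -0.22, and Sp1 was at -0.09 (limma, adjusted p = 0.0456).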

How the data were processed

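RNA of IL-1-treated and untreated mouse dermal fibroblasts was compared on 6 Agilent arrays of 43790 spots, 2256 of them controls. Per the file headers, Agilent Feature Extraction 7.5.1 read the arrays. The deposited intensity columns hold mean and local background signals before correction. Processed intensity columns hold background-subtracted, dye-normalized signals, per the file headers. The log10 ratio column, also deposited, was not used. The value table of the authors holds log2 ratios, and each column matches its dye-swap partner's processed ratio, not its own array's, for 100% of spots within 0.001. The medians of its columns, replicate 1 first, were -0.026 and 0.0261 (1 h), -0.0309 and 0.0311 (2 h), -0.0325 and 0.0283 (4 h), so no further centring is seen. No source used here gives the genome build of the probes.

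Signals were corrected with normexp (offset 50) and loess (limma 3.58.1, R 4.3.3), with controls at weight 0. Controls and outlier-flagged spots were left out, saturated spots kept, and spots of a probe averaged. Kept probes (30640 of 41174) were flagged as well above background in the channel of 1 condition's RNA on all its arrays. The flag is permissive: single arrays had it on up to 14.3% (Cy3) and 2.55% (Cy5) of negative controls. The brightest kept probe stood for a gene. The mean response and the slope on log2 hours, which leave 2 and 1 residual degrees of freedom, were fitted with lmFit, with two-sided eBayes tests. P-values rest on the spread between these samples, drawn toward a variance common to all genes, and that spread may be technical. Signals had medians of 118 to 129.5 (Cy5) and 121 to 127 (Cy3), and the number of arrays limits the precision.

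Same-numbered arrays deviated together (correlations 0.781 to 0.855 across genes); per the labels a number stands for a dye orientation. A fit of 6 arrays with the replicate block was an alternative. Other alternatives were the background correction, median centring, a trended robust variance, the mean of probes, no filter, each orientation or time left out, and the authors' value table. The test was run on simulated data with independent noise at each time, in which a dye effect cancels by construction. A deviation of the untreated RNA shared by all times was not simulated, so the run cannot speak to it. Every kept member is named, and from each list up to 4 genes past the threshold with the largest size, then the largest others; Cxcl1, Nfkbia, Serpinh1, P4ha1, Timp1, Omd, Tgfb3, Nfya, Nfyb and Sp1 were added after their values were seen. The members and lists were chosen with earlier results of these data known.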

Additional observations from a re-analysis of the deposited data

Results flagged for a closer look

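The slope of Col5a3 was 0.28 per doubling of time, and it is listed here because the response differed between the time points by a test of that difference (limma, adjusted p = 0.0252). The ratio was higher at 4 h than at 2 h and at 2 h than at 1 h in both dye orientations. The slope rests on the brighter of 2 probes, and on 3 samples that leave 1 residual degree of freedom. The other probe, not above the negative controls, did not rise with time (0.107, 0.045 and 0.021).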

How the results depend on the processing

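Of 535 values of single genes under an alternative, 433 kept their direction and call, or moved by less than the spread. Median centring moved higher collagen genes from 10 to 4, lower ones from 4 to 8, list genes to 20 and 50, all genes from 2335 and 2396 to 1126 and 5754, and the family medians after 2 and 4 h to -0.015 and -0.037. It turned Col16a1 to -0.029, Col4a4 to -0.0081, Col6a3 to -0.029, Col7a1 to -0.014, Col5a1 to -0.12 and Col5a2 to -0.091. The processed signals gave 4 higher collagen genes, 13 higher and 6 lower list genes. The count of slopes, 1, became 0 with the processed signals, 0 with offset 16, 0 with trended variance, 0 with the mean of probes and 2 without background subtraction. Leaving out a replicate or time gave 3 to 15 higher (3 without 2 h) and 3 to 10 lower collagen genes (10 without replicate 2), 13 to 39 higher and 4 to 27 lower list genes, 0 to 0 slopes, 0 to 1 genes past 2-fold, and medians of 0.0096 to 0.095, 0.013 to 0.089 and -0.0094 to 0.058. Without either replicate, Col16a1 ranged from -0.059 to 0.32, Col19a1 from -0.34 to 0.37, Col1a1 from -0.47 to 0.70, Col1a2 from -0.76 to 0.95, Col20a1 from -0.32 to 0.41, Col25a1 from -0.23 to 0.31 and Col4a4 from -0.047 to 0.24, with the low value without replicate 2, for Col4a4 without replicate 1. The mean of probes put Col1a2 at -0.16. The cause was not tested. The replicate block gave 13 higher and 4 lower collagen genes and 1 slope; it changed no call of a collagen gene other than Col4a6, Col5a1 and Col5a2. Counting only members above the negative controls, chosen after seeing the data, left 10 higher, 4 lower and 1 with a slope. Signal over background limits 8 members.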
